A study of Mus musculus with 21 samples.

Results

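A set of retinoic acid signalling genes was followed through the differentiation of mouse embryonic stem cells into motor neurons, namely the receptors *Rara*, *Rarb* and *Rarg*, the breakdown enzymes *Cyp26a1* and *Cyp26b1*, the reductase *Dhrs3*, the binding proteins *Crabp1* and *Crabp2* and the uptake receptor *Stra6*. The 9 genes were found by matching the Ensembl identifiers of the deposited tables to gene symbols, out of 55400 genes in all. Each was measured by mRNA sequencing in 21 libraries, 3 in each of 7 groups, and all 9 passed the filter on low counts in every comparison.

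Retinoic acid is made from retinol by oxidation to retinaldehyde and then to the acid, and it enters the nucleus to bind retinoic acid receptors, which sit on DNA as partners of retinoid X receptors. Several genes that receptors switch on encode proteins that lower or bind the ligand, so their RNA is widely read as a sign that the pathway is active. In the embryo retinoic acid patterns the hindbrain and spinal cord along the body axis and supports the specification and subtype identity of motor neurons, and in cultures such as these it is added to the medium.

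All libraries came from wild-type C57BL/6 embryonic stem cells, which had been kept on mitomycin-treated mouse fibroblasts and were then grown as embryoid bodies towards hypaxial motor column neurons. From day 2 the medium held 1 µM all-trans retinoic acid and 0.5 µM SAG, a Sonic Hedgehog agonist, and 5 µM DAPT, a Notch pathway inhibitor, was added to it at day 4. From day 5 the cells were in medium with DAPT whose recipe lists neither retinoic acid nor SAG, so that the D6 cells had a day without either being added. The untreated groups were D4 (progenitors), D4H8 (8 h later, proneural cells), D5 (newborn neurons) and D6 (maturing neurons). The groups D4H8+GSKJ4, D5+GSKJ4 and D6+GSKJ4 received GSKJ4, an inhibitor of the H3K27 demethylases of the Kdm6 family, from a day before collection. Its dose in these cultures and any vehicle in the untreated ones are not given in the sources used here.

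Total counts per library ran from 14982115 to 34383842. Every library is labelled as differentiated motor neuron, but the summed level of 8 motor neuron markers (*Isl1*, *Isl2*, *Mnx1*, *Lhx3*, *Lhx4*, *Slc18a3*, *Chat* and *Slc5a7*) was 7.71 to 19.6 FPKM (counted fragments scaled by exonic length and library total) at D4 and 443 to 512 FPKM at D6. A pair of libraries stood apart. D5+GSKJ4 replicate 2 had 39381 genes without a count against 29339 to 32805 in the other 20 libraries. D4H8+GSKJ4 replicate 2 differed from replicates 1 and 3 by a mean chi-square per gene of 104 and 86.1, while those differed from each other by 33.7. Calls that rest on them are given with and without them below. The labels call the replicates biological without saying that they were separate cultures, so p-values measure only the spread between these libraries. In such bulk samples, fewer cells of a type and less RNA per cell cannot be told apart.

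The first question was how these genes moved along the stages without inhibitor, for which edgeR's quasi-likelihood test was fitted on the 12 untreated libraries and p-values were adjusted over all 17519 tested genes by the Benjamini-Hochberg method. From D4 to D4H8, 1 of the 9 genes rose and none fell at an adjusted p under 0.05, where 4.38% of all tested genes were called, 4.06% higher and 0.32% lower. From D4H8 to D5, 2 rose and 2 fell, with 27.7% of all genes called, 17.2% higher and 10.5% lower. From D5 to D6 none rose and 5 fell, against 34.3% of all genes, 19.2% called higher and 15.1% lower. Across the whole interval from D4 to D6, 2 rose and 5 fell, where 63.9% of all genes were called, 32.9% higher and 31.0% lower. The median log2 fold change of the 9 genes was -0.41 from D5 to D6 and -0.73 from D4 to D6, beside -0.02 and -0.04 over all tested genes. In CPM, which are counts scaled to the TMM-normalised library size, the groups did not overlap for 5, 5, 5 and 8 of the 9 genes in these 4 comparisons, as for 25.5%, 43.7%, 47.5% and 70.1% of all genes. Same-numbered libraries of neighbouring stages varied together, but those of D4 with D5 or D6 missed the rule for pairing given below. With the replicate number as a block over all 12 untreated libraries, 3 of the 9 genes were called from D4 to D4H8 (5.39% of all genes). In the next step 4 were called (30.9%) and in the last 6 (38.0%). Consecutive comparisons share the libraries of a stage and are not independent of each other.

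**Figure D1:**
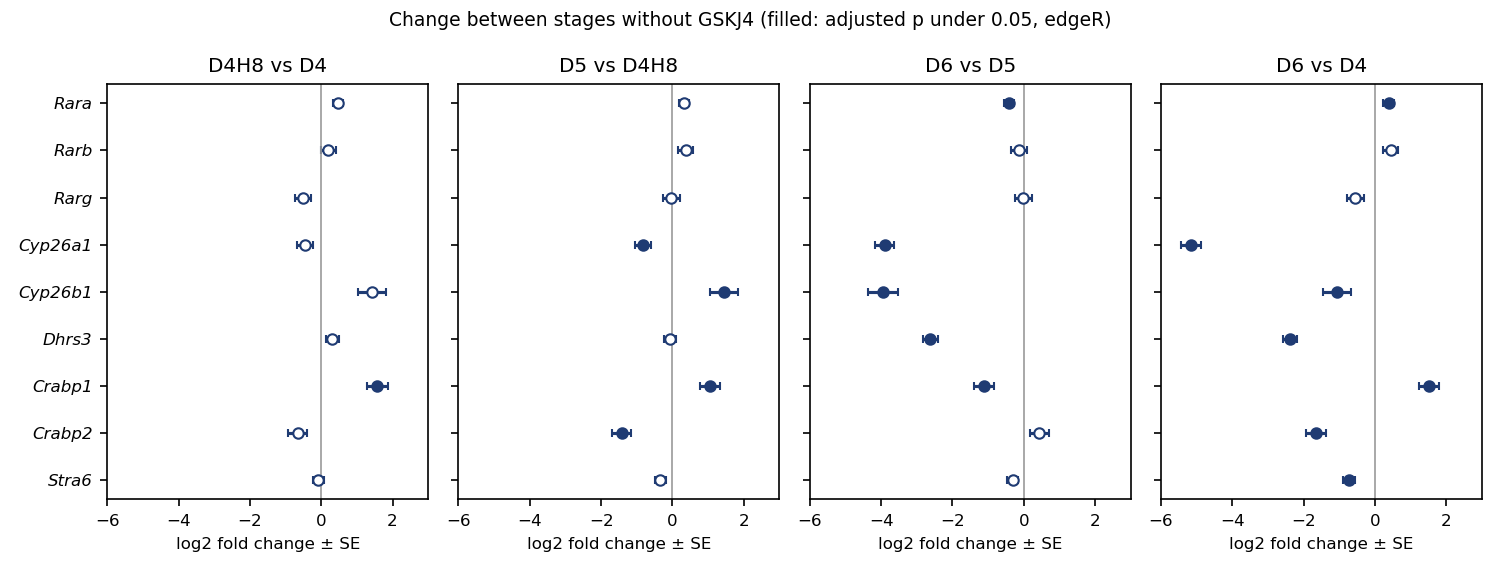
Log2 fold change with its standard error (x axis) for each of the 9 genes (y axis) in 4 comparisons of untreated stages, with filled circles at an adjusted p under 0.05 in edgeR. *Cyp26a1* and *Cyp26b1* lie at -3.90 and -3.94 for D6 against D5, *Cyp26a1* lies at -5.16 for D6 against D4, and the 3 receptors stay within 1 log2 unit of no change in all 4 panels.

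*Cyp26a1*, a cytochrome P450 that oxidises retinoic acid and a classic direct target of the receptors, is encoded on GRCm38 chromosome 19: 37697798-37701536 on the plus strand. Its RefSeq promoter window (250 bases before to 50 after the start) holds a direct repeat with a 5-base spacer (DR5) just upstream of the start, on the strand opposite to the gene. *Rarb*, the receptor best known for being induced by its own ligand, lies on chromosome 14: 16430839-16819156 on the minus strand, and the window at its internal RefSeq start holds a DR5 too. Both matches are shown because these were the only ones among the 9 genes, with the repeat in capitals, reading 5′ to 3′ along the gene.
Cyp26a1: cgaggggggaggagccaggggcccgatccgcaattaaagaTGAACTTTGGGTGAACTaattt
Rarb: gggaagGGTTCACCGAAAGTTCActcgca
The *Cyp26a1* stretch is chr19:37697736-37697797, which ends at the base before the annotated first exon, and its repeat spans positions -32 to -16 from the RefSeq start. The *Rarb* stretch is chr14:16575507-16575535 on the minus strand, with the repeat at -53 to -37, and in GENCODE this place lies within the 5′ untranslated region of the transcripts Rarb-201 and Rarb-207. The search took 2 half-sites in the same direction with 5, 2 or 1 bases between them, on both strands. A half-site was read as AGGTCA in its usual spelling, also as AGTTCA in a common variant, and further as GGGTCA for another or finally as GGTTCA for the last. A DR5 was found in the windows of 2 of the 8 member genes that have one (*Crabp2* has none), in 0 of 22 other retinoid genes and in 31 of 27025 genes in all, or 0.115%. No window of the 8 genes held a repeat with a spacer of 2 or 1, which were present in 0.311% and 0.263% of all genes. These are matches of letters in short windows and say nothing of binding.

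*Cyp26a1* was high in the progenitors and low by D6. Its level was 92.2, 86.1 and 111 FPKM in D4 replicates 1 to 3, 60.9, 71.5 and 88.7 FPKM at D4H8, 31.9, 45.4 and 47.8 FPKM at D5 and 1.36, 3.71 and 2.70 FPKM at D6. In FPKM D4 and D4H8 overlapped, D5 lay below D4H8 without overlap, and every D6 library lay far below the lowest D5 library. The step from D4 to D4H8 had a log2 fold change of -0.44 (SE 0.22, adjusted p = 0.344). D5 against D4H8 gave -0.82 (SE 0.23, adjusted p = 0.0147), and D6 against D5 gave -3.90 (SE 0.27, adjusted p = 5.9e-07). The middle step lost its call without D4H8 replicate 3, without D5 replicate 1 and in one fit over all 21 libraries (adjusted p = 0.0697, 0.0649 and 0.162).

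*Cyp26b1*, the related enzyme known in the embryo for clearing retinoic acid in limb and hindbrain territories, took another course and peaked at D5 (chromosome 6: 84571414-84593908, minus strand). It was at 23.2, 23.7 and 21.04 FPKM at D4, 84.8, 57.2 and 47.7 FPKM at D4H8, 236, 144 and 137 FPKM at D5 and 13.4, 13.8 and 3.81 FPKM at D6. No pair of consecutive stages overlapped. The step from D4 to D4H8 was 1.43 (SE 0.39, log2) with an adjusted p of 0.0562, and 0.00841 with the replicate block. The rise from D4H8 to D5 was 1.45 (SE 0.39, adjusted p = 0.0126), and it lost its call without D4H8 replicate 2, D4H8 replicate 3 or D5 replicate 1 (adjusted p = 0.0534, 0.0597 and 0.0645 for *Cyp26b1*). From D5 to D6 *Cyp26b1* fell by 3.94 on the log2 scale (SE 0.43, adjusted p = 1.84e-05), to a level below that of D4 (log2 fold change -1.06, SE 0.39, adjusted p = 0.0285). That last call was lost in DESeq2 (adjusted p = 0.0768 for *Cyp26b1*) and without D4 replicate 1, D4 replicate 2 or D6 replicate 3, with log2 fold changes of -1.01, -1.05 and -0.65.

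Per length, the breakdown enzymes exchanged places as the larger part of their family. *Cyp26a1* made up 75.3% ± 3.17 (SD, n = 3) of the summed FPKM of *Cyp26a1*, *Cyp26b1* and *Cyp26c1* at D4, 51.2% ± 10.8 at D4H8 and 20.2% ± 7.36 at D5, whereas *Cyp26b1* made up 17.9% ± 2.66, 43.5% ± 11.3 and 78.0% ± 7.71. The summed level was 119 to 142 FPKM at D4, 137 to 153 FPKM at D4H8 and 188 to 271 FPKM at D5. At D6 the sum was 6.95 to 17.97 FPKM, below every library of the earlier stages. At that level the shares spread widely, from 9.16% to 38.9% for *Cyp26a1*.

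**Figure D2:**
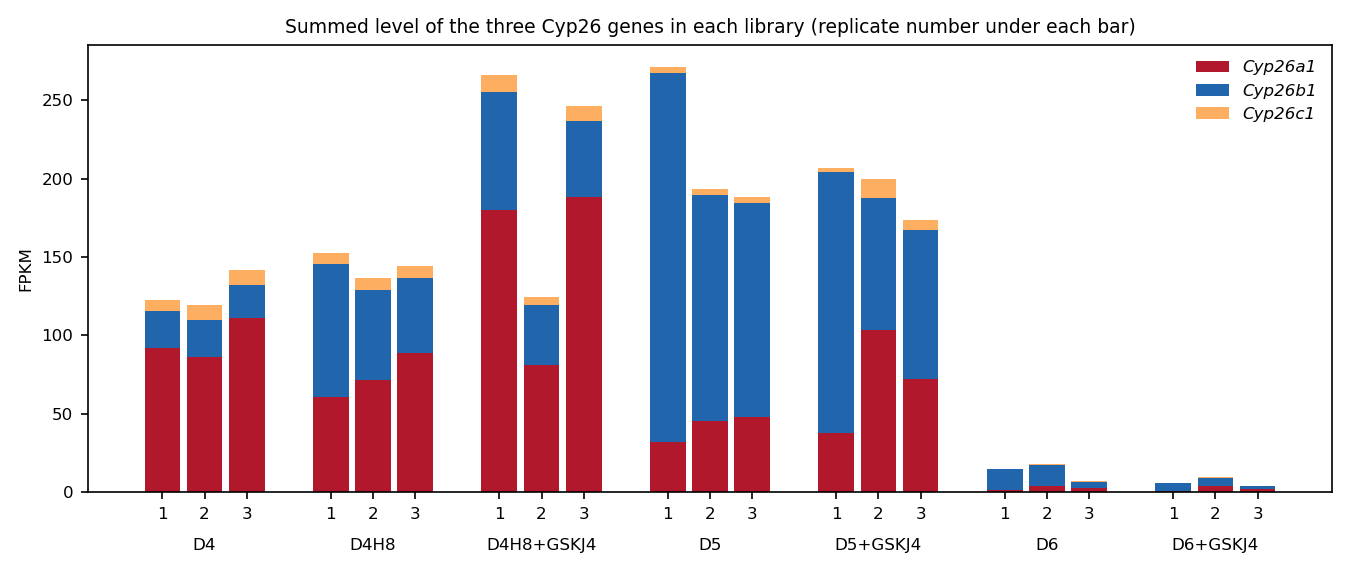
Stacked FPKM (y axis) of *Cyp26a1*, *Cyp26b1* and *Cyp26c1* in each of the 21 libraries, with replicate numbers under the bars and groups under those. Red *Cyp26a1* dominates the D4 bars and blue *Cyp26b1* the D5 bars, and the D6 bars reach at most 17.97 FPKM.

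*Dhrs3*, a reductase that turns retinaldehyde back into retinol, passed no test until D5 and then fell (chromosome 4: 144892827-144928209, plus strand). Its values were 15.1, 13.2 and 18.5 FPKM at D4, 18.8, 21.2 and 20.1 FPKM at D4H8, 14.5, 21.3 and 21.4 FPKM at D5 and 2.07, 3.63 and 2.94 FPKM at D6. The first 2 steps had log2 fold changes of 0.31 and -0.07 (adjusted p = 0.415 and 0.818 for *Dhrs3*). From D5 to D6 *Dhrs3* fell by 2.62 on the log2 scale (SE 0.20, adjusted p = 1.12e-06), with no overlap of the groups.

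The binding proteins reached the highest levels of the 9 genes per length, and they moved apart. *Crabp1*, a cytosolic carrier of retinoic acid that also marks newborn neurons of the hindbrain and spinal cord (chromosome 9: 54764748-54773110, plus strand), was at 160, 257 and 125 FPKM at D4, 699, 586 and 382 FPKM at D4H8, 1402, 1064 and 970 FPKM at D5 and 569, 458 and 430 FPKM at D6. No consecutive stages overlapped. On the log2 scale it rose by 1.58 between D4 and D4H8 (SE 0.28, adjusted p = 0.00444) and by a further 1.05 until D5 (SE 0.28, adjusted p = 0.0116), then fell by 1.12 until D6 (SE 0.28, adjusted p = 0.00676). The rise from D4H8 to D5 was not called without D4H8 replicate 3, without D5 replicate 1 or in one fit over all 21 libraries (adjusted p = 0.0551, 0.0568 and 0.0782 for *Crabp1*).

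*Crabp2*, which carries retinoic acid to the receptors in the nucleus (chromosome 3: 87948666-87953376, plus strand), started high and went down. D4 libraries held 727, 445 and 383 FPKM, D4H8 libraries 391, 329 and 319 FPKM, D5 libraries 160, 127 and 97.8 FPKM and D6 libraries 179, 169 and 132 FPKM. Its decrease from D4H8 to D5 was -1.43 (SE 0.27, log2, adjusted p = 0.00137), with all D5 libraries below all D4H8 libraries. The earlier step of -0.66 (SE 0.27) had an adjusted p of 0.221, and 0.0357 with the replicate block. The later one of 0.43 (SE 0.27) had an adjusted p of 0.231, and 0.0299 with the block. *Crabp1* made up 26.4% ± 9.42 (SD, n = 3) of the FPKM of the pair at D4, 60.9% ± 5.51 at D4H8, 90.0% ± 0.779 at D5 and 75.2% ± 1.899 at D6.

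The receptors moved little by comparison. *Rara* (chromosome 11: 98927818-98974942, plus strand), the receptor with the broadest expression in embryos, was at 8.39, 11.3 and 11.7 FPKM at D4, 16.4, 15.8 and 12.5 FPKM at D4H8, 20.4, 15.95 and 19.4 FPKM at D5 and 13.0, 12.5 and 13.2 FPKM at D6. The D5 libraries were above all D4 and D6 libraries, and D4H8 overlapped with D5. *Rara* fell from D5 to D6 by 0.41 on the log2 scale (SE 0.14, adjusted p = 0.0414), a call that 7 of 18 alternatives kept. From D4 to D6 *Rara* rose by 0.38 (SE 0.15, adjusted p = 0.0335), kept by 10 of 18. Leaving out D5 replicate 1 took the first to -0.32 (adjusted p = 0.134), and leaving out D4 replicate 1 took the second to 0.25 (adjusted p = 0.204).

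*Rarb* was at 6.23, 6.69 and 4.87 FPKM at D4, 8.61, 6.63 and 5.92 FPKM at D4H8, 9.97, 7.91 and 9.59 FPKM at D5 and 9.0, 8.15 and 5.92 FPKM at D6. D4 and D5 did not overlap, but each step overlapped with its neighbour and none passed the test, with log2 fold changes of 0.20, 0.37 and -0.13. Of its 5265 exonic bases, 2020 are shared with genes on the other strand, mainly *Top2b*, which averaged 6543 counts per library, and since the counting strand is not stated, the level of *Rarb* is uncertain.

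*Rarg* (chromosome 15: 102234938-102257517, minus strand), best known for its part in skin and cartilage, was the lowest of the receptors by mean in every untreated group, at 4.28, 4.67 and 7.53 FPKM at D4, 2.81, 3.96 and 5.23 FPKM at D4H8, 3.41, 3.76 and 4.42 FPKM at D5 and 2.89, 4.25 and 3.55 FPKM at D6. D4 lay above D6 without overlap, at a log2 fold change of -0.55 (SE 0.23), and the adjusted p of 0.0514 just missed the threshold. *Rara* contributed 47.6% ± 2.87 (SD, n = 3) of the summed receptor FPKM at D4 and 58.7% ± 1.43 at D5, with *Rarg* at 24.8% ± 5.63 and 12.3% ± 1.93. The sum includes *Rarb*, so these shares carry the uncertainty of its level.

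*Stra6*, the membrane receptor through which cells take up retinol from its plasma carrier (chromosome 9: 58063788-58153996, plus strand), went down slowly. It was at 12.8, 11.8 and 13.4 FPKM at D4, 11.9, 12.3 and 13.2 FPKM at D4H8, 7.05, 10.4 and 12.1 FPKM at D5 and 7.72, 7.21 and 6.99 FPKM at D6. No single step passed the test. Over the whole interval from D4 to D6 it fell by 0.73 on the log2 scale (SE 0.16, adjusted p = 0.00115), with all D6 libraries below all D4 libraries.

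**Figure D3:**
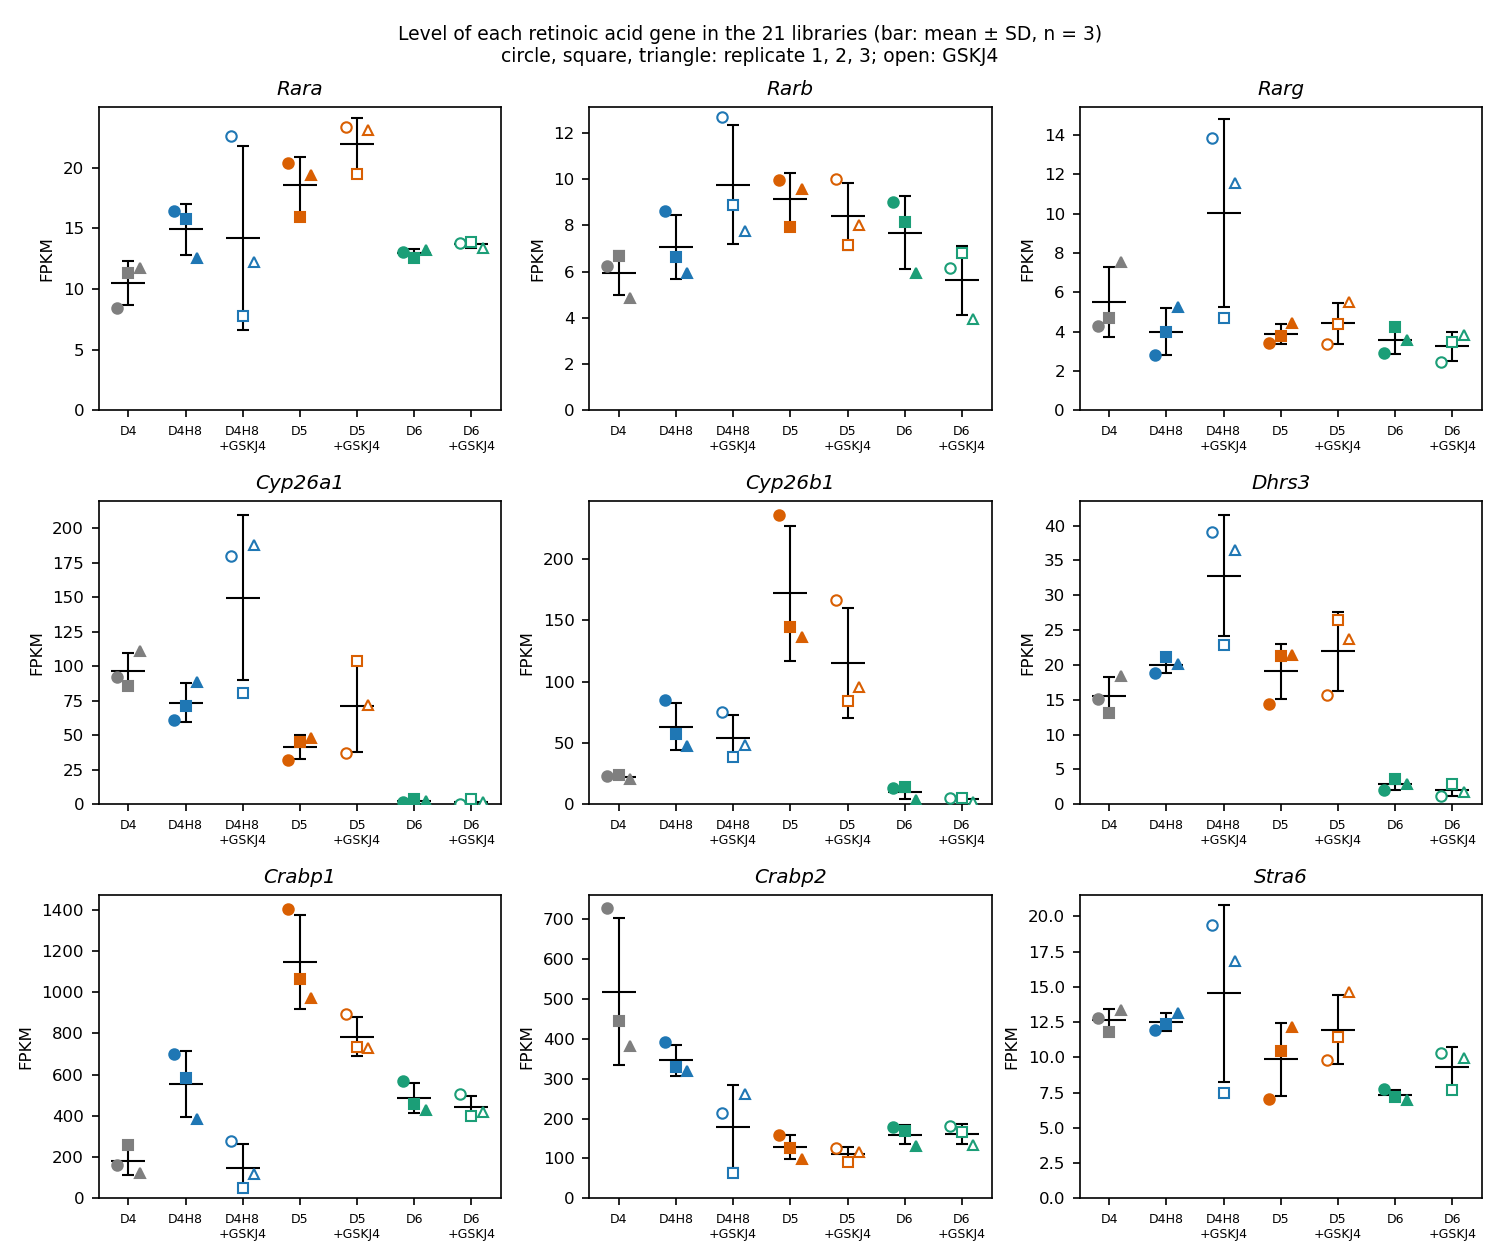
FPKM (y axis, from 0) of each of the 9 genes by group (x axis), with 1 point per library, open points for GSKJ4, and the mean and SD of 3 libraries as bars. *Cyp26a1*, *Cyp26b1* and *Dhrs3* are lowest in both D6 groups, *Crabp1* and *Cyp26b1* are highest at D5, and the 3 replicates of D4H8+GSKJ4 spread widely, with replicate 2 lowest for all but *Rarb*.

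Ordered by mean over all 7 groups, most neighbouring groups overlapped in FPKM. The neighbours without overlap were D6+GSKJ4 above D6 and D6 above D4 for *Rara*, D5 above D6 for *Cyp26a1*, D4H8+GSKJ4 above D4 and D4 above D6 for *Cyp26b1*, and D4 above D6 for *Dhrs3*. For *Crabp1* they were D5 above D5+GSKJ4, that above D4H8, and D6+GSKJ4 above D4, and for *Crabp2* D4H8 above D4H8+GSKJ4. *Rarb*, *Rarg* and *Stra6* had none.

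These shifts ran beside a change of cell state and of medium. DAPT was added at day 4, and from day 5 the recipe lists neither retinoic acid nor SAG. Stage and medium therefore cannot be told apart from D4 to D4H8, from D5 to D6 or over the whole interval. From D4 to D4H8, 6 of 8 motor neuron, all 6 neuron and 2 of 7 neural progenitor markers rose, the last summing to 156 to 235 FPKM at D4 and 231 to 319 FPKM at D4H8. From D4H8 to D5 all 8 motor neuron and all 6 neuron markers rose, 5 of 7 neural progenitor markers and all 6 proliferation markers fell, and the proliferation markers summed to 565 to 580 FPKM at D4H8. From D5 to D6 all 6 proliferation markers fell (summed level 184 to 285 FPKM at D5 and 53.5 to 127 FPKM at D6), 6 of 8 motor neuron markers rose and 1 fell (243 to 292 against 443 to 512 FPKM), and of 7 neural progenitor markers 2 fell and none rose (160 to 213 against 154 to 220 FPKM). The 9 fibroblast markers summed to 9.62 to 16.7 FPKM at D5 and 12.02 to 27.4 FPKM at D6, with 1 of 8 tested called higher. None of these markers was at or below 3 counts in every library of D5 or of D6. Endoderm markers summed to 12.3 to 19.4 FPKM at D5 and 13.5 to 19.9 FPKM at D6, with 1 of 5 called higher and 2 lower, and interneuron markers to 2.59 to 4.61 and 4.68 to 7.87 FPKM. Pluripotency markers summed to 123 to 290 FPKM at D4, 56.8 to 241 FPKM at D4H8, 55.4 to 141 FPKM at D5 and 12.2 to 94.1 FPKM at D6. None of these 7 was called at any single step, and 1 was called lower from D4 to D6. Their part in the result was not tested.

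Of 35 other genes of retinoid metabolism, transport and response, 30 were tested along the stages. D4H8 against D4 had 1 higher and 0 lower, D5 against D4H8 had 6 and 2, D6 against D5 had 6 and 8 and D6 against D4 had 12 and 9. Of all tested genes, 4.06%, 17.2%, 19.2% and 32.9% were called higher in these comparisons, and 0.32%, 10.5%, 15.1% and 31.0% lower. The 1 gene of the list that rose at the first step was *Ret*, the receptor of glial cell line-derived factors (log2 fold change 0.80, SE 0.15, adjusted p = 0.0079). Among genes that synthesise the ligand, *Rdh10*, which makes retinaldehyde, was between 2.86 and 5.62 FPKM in the untreated libraries and rose from D4 to D6 (log2 fold change 0.50, SE 0.21, adjusted p = 0.0496, kept by 6 of 18 alternatives). *Aldh1a2*, the retinaldehyde dehydrogenase that motor neurons of limb levels express in the embryo, was at 0.31, 0.41 and 0.24 FPKM at D4, 0.42, 0.65 and 0.18 FPKM at D4H8, 2.26, 3.63 and 2.16 FPKM at D5 and 56.2, 62.7 and 49.6 FPKM at D6. The D6 libraries thus stood far above all others, and the log2 fold change was 2.66 for D5 against D4H8 (SE 0.31, adjusted p = 2.81e-05) and 4.50 for D6 against D5 (SE 0.27, adjusted p = 2.71e-07).

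The partner receptors *Rxra* (6.55 to 9.04 FPKM) and *Rxrb* (12.2 to 19.8 FPKM) passed no test between stages, while *Rxrg* went from 3, 4 and 19 counts at D4 to 205, 230 and 256 counts at D5 and 673, 782 and 613 counts at D6. *Rxrg* rose by 3.63 on the log2 scale up to D5 (SE 0.38 against D4H8, adjusted p = 8.59e-06) and by another 1.69 up to D6 (SE 0.32, adjusted p = 0.00108). *Rbp2*, a cellular retinol binding protein, went from 9, 3 and 1 counts at D4H8 to 22, 37 and 31 counts at D5 (adjusted p = 0.00122), so that its fold change depends on the prior count. The coregulator *Ncoa1* rose from D5 to D6 by 0.77 (SE 0.16, adjusted p = 0.0028).

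Going down with *Cyp26a1* were *Hoxb1*, an early hindbrain gene with known retinoic acid response elements, the third breakdown enzyme *Cyp26c1*, and *Stra8*, named for its stimulation by retinoic acid. *Hoxb1* was at 8.01, 9.57 and 11.1 FPKM at D5 and 0.29, 0.68 and 0.71 FPKM at D6, a log2 fold change of -3.98 (SE 0.24, adjusted p = 2.71e-07). *Cyp26c1* was at 3.86, 3.95 and 3.85 FPKM at D5 and 0.11, 0.50 and 0.44 FPKM at D6 (-3.37, SE 0.32, adjusted p = 6.2e-06). *Stra8* was at 93.0, 218 and 167 FPKM at D5 and 9.61, 50.7 and 47.6 FPKM at D6 (-2.05, SE 0.51, adjusted p = 0.00674). *Hoxb1* and *Cyp26c1* had also fallen from D4H8 to D5, by 0.85 and 0.96 on the log2 scale (adjusted p = 0.00392 and 0.0111).

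The genes whose pattern was most like that of each member were sought among 11120 genes with a mean of at least 100 counts, by Pearson's r of log2 CPM over the 21 libraries, which share stages and treatments, so that r is a description. Nearest to *Cyp26a1* were *Hoxb1* (r = 0.983), *Cyp26c1* (0.981) and *Dhrs3* (0.978), though with a prior count of 0.5 instead of 2 *Ptges* (0.968) took the place of *Cyp26c1*. *Dhrs3* was nearest to *Cyp26a1*, *Hoxb1* (0.964) and *Fbxo32* (0.957). *Cyp26b1* ran with *Fndc5* (0.946) and *Zadh2* (0.923), and *Crabp1* with *Igfbpl1* (0.957), *Tmem132e* (0.956) and *Miat* (0.955). *Crabp2* was nearest to *Sfrp2* (0.892), *Rara* to *Habp4* (0.891), *Rarg* to *Nucb1* (0.914) and *Stra6* to *Pdlim7* (0.860), whereas no gene exceeded an r of 0.650 (*Senp5*) for *Rarb*.

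**Figure D4:**
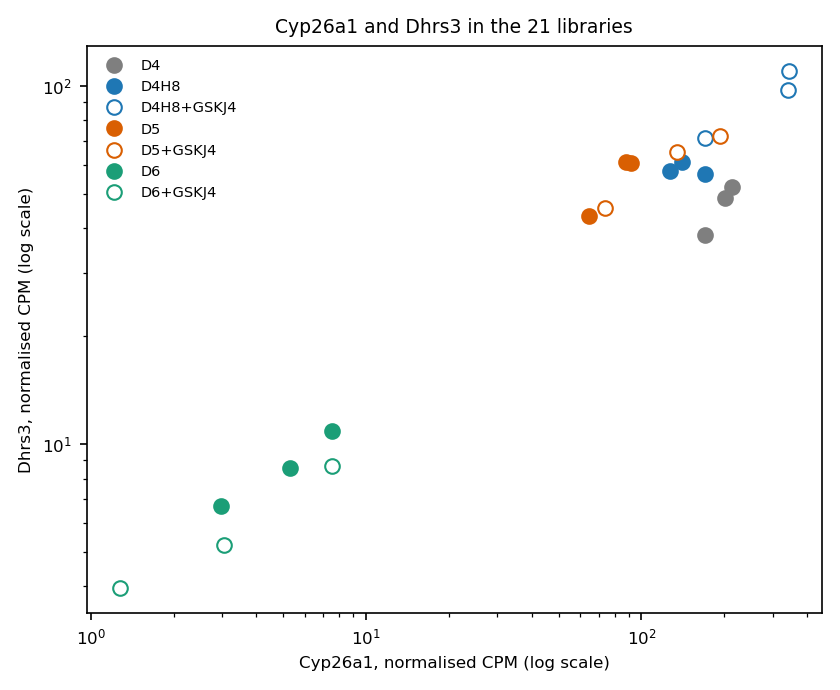
CPM of *Cyp26a1* (x axis, log scale) and *Dhrs3* (y axis, log scale) in the 21 libraries, coloured by stage and open for GSKJ4. The 6 D6 libraries form a cluster at the lower left, and the D4H8+GSKJ4 replicates with 342 and 341 CPM of *Cyp26a1* lie at the upper right.

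The second question was what GSKJ4 did to these genes, tested at each stage on its own 3 treated and 3 untreated libraries. At D4H8, none of the 9 genes reached an adjusted p under 0.05 in edgeR, where 3.96% of 16269 genes did, and 5 had an unadjusted p under 0.05, as did 25.1% of all genes. The groups did not overlap in CPM for 4 of the 9 genes and for 33.4% of all genes. DESeq2 called 5 of the 9 genes, with *Rarg*, *Cyp26a1* and *Dhrs3* higher beside 7.35% of all genes and *Crabp1* and *Crabp2* lower beside 5.42%. Without D4H8+GSKJ4 replicate 2, edgeR called the same 5 beside 10.5% of all genes, and without replicate 1 it called *Crabp1* alone beside 3.23%. Without replicate 3, or without any 1 of the untreated libraries, it called none of the 9. With the replicate number as a block, edgeR called 4 of the 9 genes beside 14.0% of all genes. *Rarg* and *Cyp26a1* were higher there and *Crabp1* and *Crabp2* lower, though the numbers were not taken to pair these groups.

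*Crabp1* showed the widest gap, with 277, 50.1 and 119 FPKM in the treated and 699, 586 and 382 FPKM in the untreated libraries. The highest treated library was below the lowest untreated one. Its log2 fold change was -1.98 (SE 0.50, adjusted p = 0.0598), -1.58 (SE 0.40) without treated replicate 2 and -2.77 (SE 0.40) without treated replicate 1. *Crabp2* was at 215, 62.4 and 261 FPKM against 391, 329 and 319 FPKM, again without overlap (-1.03, SE 0.39, adjusted p = 0.146), and its fold change without replicate 2 was -0.64 (SE 0.16, adjusted p = 0.044).

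*Cyp26a1* was at 180, 80.8 and 188 FPKM with GSKJ4 and 60.9, 71.5 and 88.7 FPKM without, so that treated replicate 2 lay within the untreated range on this scale. In TMM-normalised CPM it was 342, 171 and 341 against 127, 140 and 170. The log2 fold change was 0.97 (SE 0.28, adjusted p = 0.0759) and 1.23 (SE 0.15, adjusted p = 0.0122) without replicate 2. *Dhrs3* was at 39.1, 22.9 and 36.5 FPKM against 18.8, 21.2 and 20.1 FPKM (0.66, SE 0.19, adjusted p = 0.0799), and 0.82 (SE 0.11, adjusted p = 0.0141) without replicate 2. *Rarg* was at 13.9, 4.67 and 11.5 FPKM against 2.81, 3.96 and 5.23 FPKM (1.27, SE 0.36, adjusted p = 0.0738), and 1.59 (SE 0.24, adjusted p = 0.0172) without it.

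The other 4 genes passed no test at D4H8 in any of these fits. *Rara* was at 22.6, 7.81 and 12.2 FPKM with GSKJ4, on both sides of its untreated range of 12.5 to 16.4 FPKM. *Rarb* was at 12.7, 8.86 and 7.75 FPKM, *Cyp26b1* at 75.3, 38.3 and 48.7 FPKM and *Stra6* at 19.4, 7.46 and 16.8 FPKM. Each of these ranges overlapped with the untreated one.

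Markers of cell state differed at the same time. The 7 neural progenitor markers summed to 59.0 to 120 FPKM with GSKJ4 and 231 to 319 FPKM without, with 3 called lower and 0 higher, and the 8 motor neuron markers to 12.6 to 28.9 FPKM against 57.9 to 62.7 FPKM, with 3 of 7 tested called lower. The 6 neuron markers summed to 76.4 to 217 FPKM against 190 to 368 FPKM, with none called. The 6 proliferation markers summed to 328 to 482 FPKM against 565 to 580 FPKM, with 1 called lower. Fibroblast markers reached 10.0 to 27.5 FPKM against 5.82 to 13.8 FPKM with none of 7 tested called, pluripotency markers 114 to 253 FPKM against 56.8 to 241 FPKM with none of 7 called. Without replicate 2 the treated sums were 106 to 120 FPKM for neural progenitor, 21.8 to 28.9 FPKM for motor neuron and 328 to 433 FPKM for proliferation markers, and the other 3 ranges were the same. Of the fibroblast markers, *Twist2* was at or below 3 counts in each treated library. Their part in the result was not tested.

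Of the other retinoid genes, 29 were tested at D4H8, with 1 higher and 3 lower under GSKJ4, beside 2.11% and 1.85% of all genes. *Hoxb1* rose from 14.7, 19.5 and 17.7 FPKM to 35.9, 31.3 and 46.4 FPKM (log2 fold change 1.09, SE 0.19, adjusted p = 0.0235). *Fabp5*, a fatty acid binding protein that can carry retinoic acid, fell from 31.1, 24.0 and 21.8 FPKM to 6.82, 3.85 and 5.74 FPKM (-2.28, SE 0.24, adjusted p = 0.00364). *Hoxd4* fell from 26.3, 20.9 and 18.6 FPKM to 6.68, 3.09 and 4.6 FPKM (-2.25, SE 0.28, adjusted p = 0.00895), though it shares exons with *Hoxd3* and is uncertain. *Ret* fell from 7.87, 8.77 and 8.63 FPKM to 5.70, 3.64 and 3.91 FPKM (-0.97, SE 0.20, adjusted p = 0.0366). Without D4H8+GSKJ4 replicate 2 the log2 fold changes were 1.16 for *Hoxb1*, -2.13 for *Fabp5*, -2.05 for *Hoxd4* and -0.90 for *Ret* (adjusted p = 0.0132, 0.00816, 0.0113 and 0.03), and without replicate 3 the call of *Ret* was lost (adjusted p = 0.0712).

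At D5 none of the 9 genes was called by edgeR or by DESeq2, and 0.00613% of 16309 genes, a single one, was called by edgeR. Unadjusted, 2 of the 9 genes and 4.70% of all genes had a p under 0.05. *Crabp1* was at 893, 733 and 727 FPKM with GSKJ4 and 1402, 1064 and 970 FPKM without, with no overlap (log2 fold change -0.59, SE 0.19, adjusted p = 0.976), as were 11.7% of all genes. *Cyp26a1* was at 37.5, 104 and 72.1 FPKM against 31.9, 45.4 and 47.8 FPKM (0.72, SE 0.30, adjusted p = 0.976), and its log2 fold change ran from 0.36 to 1.00 as each library was left out. *Cyp26b1* was at 167, 84.0 and 95.3 FPKM against 236, 144 and 137 FPKM, with overlap (-0.62, SE 0.31, adjusted p = 0.976). At this stage the motor neuron markers summed to 152 to 182 FPKM with GSKJ4 and 243 to 292 FPKM without. The neural progenitor markers summed to 148 to 157 against 160 to 213 FPKM, and both lists were without overlap. Neuron markers (1004 to 1357 against 1235 to 1398 FPKM), proliferation markers (183 to 267 against 184 to 285 FPKM) and the remaining lists overlapped. No marker was called, and their part in the result was not tested. Without D5+GSKJ4 replicate 2, the library with more genes at 0, none of the 9 genes was called either.

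At D6 edgeR called none of the 9 genes and 0.0% of 16301 genes, and DESeq2 called none of the 9. There 2 of the 9 genes and 1.36% of all genes had an unadjusted p under 0.05. The motor neuron markers summed to 395 to 476 FPKM with GSKJ4 and 443 to 512 FPKM without, and every other marker list overlapped too. No marker was called, and their part in the result was not tested. Same-numbered D6 libraries with and without GSKJ4 varied together, and with the replicate number as a block 3 of the 9 genes were called beside 1.58% of all genes. *Cyp26b1* was at 5.11, 4.81 and 1.98 FPKM with GSKJ4 and 13.4, 13.8 and 3.81 FPKM without, lower in each pair, with a blocked log2 fold change of -1.34 (SE 0.09, adjusted p = 1.46e-07, and 1.0 without the block). *Rarb* was at 6.15, 6.79 and 3.93 FPKM against 9.0, 8.15 and 5.92 FPKM (blocked -0.47, SE 0.08, adjusted p = 0.00216, and 1.0 without), with the uncertainty of strand given above. *Stra6* was at 10.3, 7.71 and 9.92 FPKM against 7.72, 7.21 and 6.99 FPKM (blocked 0.34, SE 0.07, adjusted p = 0.0225, and 1.0 without).

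For the other genes at D6, *Cyp26a1* (0.59, 3.77 and 1.57 FPKM), *Dhrs3* (1.24, 2.94 and 1.82 FPKM), *Crabp1* (506, 401 and 419 FPKM), *Crabp2* (182, 165 and 134 FPKM), *Rara* (13.8, 13.8 and 13.4 FPKM) and *Rarg* (2.43, 3.48 and 3.83 FPKM) passed no test with or without the block. Among the other retinoid genes none of 29 was called without the block and 3 were lower with it, beside 1.28% of all genes. *Aldh1a2* was one of them, at 38.4, 43.4 and 26.3 FPKM with GSKJ4 and 56.2, 62.7 and 49.6 FPKM without (blocked adjusted p = 4.27e-06, and 1.0 without the block). At D5 it was at 0.75, 0.37 and 0.99 FPKM against 2.26, 3.63 and 2.16 FPKM, without overlap (log2 fold change -1.97, SE 0.52, adjusted p = 0.721 in edgeR and 0.0353 in DESeq2, with 2 of 12 alternatives under 0.05).

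**Figure D5:**
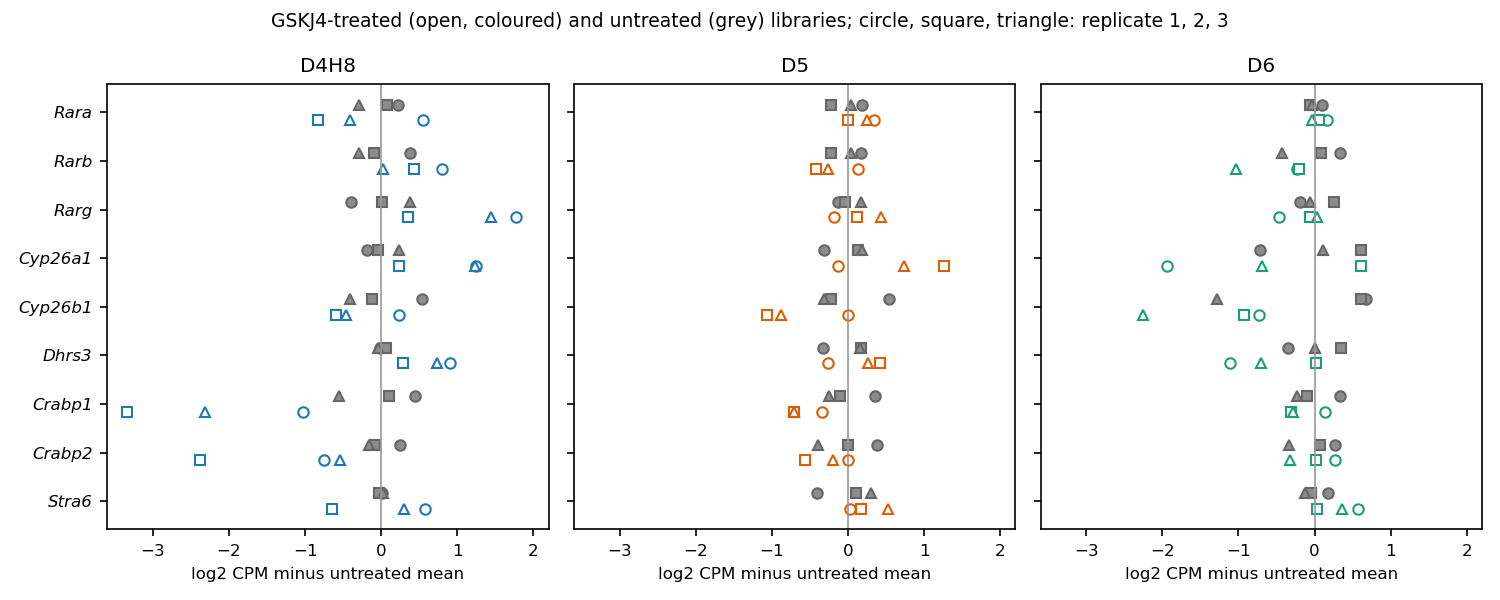
Log2 CPM of each library minus the mean of the untreated libraries of its stage (x axis) for the 9 genes (y axis), with grey points untreated, open points GSKJ4 and shapes for replicates 1 to 3. At D4H8 *Crabp1* lies at -1.02, -3.34 and -2.31, left of all untreated points, and at D6 *Cyp26b1* lies at -0.73, -0.93 and -2.25, each left of the untreated point of the same number.

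The last question was whether the effect of GSKJ4 differed between stages, tested as the difference of the log2 fold changes over 18 libraries. None of the 9 genes was called for D5 minus D4H8 (0.249% of 18103 genes), D6 minus D4H8 (0.735%) or D6 minus D5 (0.0%) in edgeR. For D6 minus D4H8, 6 of the 9 genes and 13.7% of all genes had an unadjusted p under 0.05. The differences were 1.84 for *Crabp1* (SE 0.55, adjusted p = 0.139), -1.41 for *Rarg* (SE 0.41, adjusted p = 0.128) and -1.19 for *Dhrs3* (SE 0.37, adjusted p = 0.149). DESeq2 called these 3 genes, beside 3.75% of all genes. Without D4H8+GSKJ4 replicate 2, edgeR called *Rarg* for this difference (-1.73, SE 0.33, adjusted p = 0.022), beside 0.655% of all genes, and none of the 9 for the other differences. Without D5+GSKJ4 replicate 2 it called none for any of them. For *Cyp26b1* and *Rarb*, the genes that were lower with GSKJ4 at D6 under the block, the difference between D6 and D5 was -0.75 (SE 0.65) and -0.28 (SE 0.37), each with an adjusted p of 1.0. These contrasts share libraries, the D4H8 ones in the first pair and the D6 ones in the last.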

How the data were processed

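mRNA of 21 libraries had been captured with poly-T beads and primed with random hexamers. The authors trimmed reads with Fastp, aligned them to mm10 with Hisat2 and used HTSeq-count on Ensembl genes, with a strand setting not given in the sources used here. The deposited count table holds raw counts, and the deposited FPKM table divides them by exonic length and library total, which recomputation met within 0.005 FPKM.

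Counts were tested with edgeR 4.0.16 (TMM scaling, filterByExpr with a minimum count of 10, quasi-likelihood test, Benjamini-Hochberg adjustment over all tested genes, threshold 0.05, R 4.3.3). Stage comparisons used the 12 untreated libraries, GSKJ4 comparisons their own 6 and differences of effects 18. The SE of an edgeR log2 fold change is its size divided by the square root of the test's F statistic. That statistic draws on a spread moderated across genes, so the SE is not the spread of a gene's own libraries alone. Alternatives were DESeq2 1.42.0, RLE scaling, other filters, a replicate block, one fit over 21 libraries and each library left out. The procedure was tested on simulated data for D4H8 against D4 and GSKJ4 at D6 only, with the same spread for all genes. GSKJ4 at D4H8 was not simulated. FPKM describes levels, and CPM differences use a prior count of 2.

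The replicate numbers were taken to pair groups where every same-numbered correlation of deviations from group means was over 0.1. These ran from 0.103 to 0.333 for D4 with D4H8, 0.157 to 0.337 for D4H8 with D5, 0.193 to 0.355 for D5 with D6 and 0.435 to 0.761 for D6 with D6+GSKJ4. No pair of replicates agreed within sampling noise.

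The 9 genes, the list of 35 other retinoid genes and the marker lists were chosen with earlier results of these data known. From the retinoid list, the text names up to 3 genes with the largest change in each direction among those called, beside *Rdh10*, *Aldh1a2*, *Rxra*, *Rxrb* and *Rxrg*, and for each of the 9 genes up to 3 most similar genes, of which 1 is not reported here. Promoter windows are from RefSeq (GRCm38.p6) and gene positions from GENCODE on GRCm38.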

Additional observations from a re-analysis of the deposited data

Results flagged for a closer look

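The effect of GSKJ4 differed between stages for 2 of 30 tested retinoid genes outside the 9. This was edgeR's test of the difference over 18 libraries with adjustment over all genes. It called 0.249% of all genes for D5 minus D4H8 and 0.735% for D6 minus D4H8. For *Fabp5* the log2 fold change was higher at D5 than at D4H8 by 2.00 (SE 0.30, adjusted p = 0.00595) and higher at D6 than at D4H8 by 2.39 (SE 0.30, adjusted p = 0.00106). Its level at D5 was 45.0, 38.0 and 30.2 FPKM with GSKJ4 and 35.7, 53.7 and 45.2 FPKM without, and at D6 50.3, 59.1 and 50.8 against 46.6, 55.5 and 47.2 FPKM. For *Hoxd4* the differences were 2.30 (SE 0.40, adjusted p = 0.0172) and 2.25 (SE 0.41, adjusted p = 0.0117). Its levels overlapped with and without GSKJ4 at D5 (21.02 to 26.9 and 20.4 to 23.3 FPKM) and at D6 (13.8 to 26.3 and 15.6 to 24.1 FPKM). Both genes were lower in all 3 treated libraries at D4H8, as given above, and both differences share those D4H8 libraries. *Hoxd4* shares 1889 exonic bases with neighbouring genes, so its level is uncertain. Without D4H8+GSKJ4 replicate 2 the differences were 1.84 and 2.24 for *Fabp5* (adjusted p = 0.0186 and 0.00397) and 2.11 and 2.05 for *Hoxd4* (adjusted p = 0.0553 and 0.033), so that 1 call of *Hoxd4* was lost. None of the 9 genes met this test with all libraries.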

How the results depend on the processing

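Of the effects of the 9 genes over all alternatives, 1466 kept direction and side of the threshold, 65 passed it only under the alternative, 32 no longer passed it and 30 reversed, and the cause was not tested. The number of the 9 genes called from D4 to D4H8 (1) became 2 in DESeq2 (7.02% of all genes), 3 without the filter (3.88%) and 3 with the replicate block (5.39%), and 1 to 2 as each library was left out. From D4H8 to D5 (4) it became 2 in one fit over 21 libraries (17.5%) and ran from 1 to 5. For GSKJ4 at D4H8 (0) it became 5 in DESeq2 (12.8%), 5 without the filter (7.34%), 4 with the replicate block (14.0%) and 2 in the fit over 21 libraries (11.2%), and ran from 0 to 5. For GSKJ4 at D5 it became 1 without the filter (0.423%), and at D6 3 with the replicate block (1.58%). For the difference of D5 and D4H8 it became 1 without the filter (0.993%) and ran from 0 to 1, and for that of D6 and D4H8 it became 3 in DESeq2 (3.75%), 6 without the filter (1.77%) and 1 with the block (2.71%, *Crabp1*), and ran from 0 to 1.

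Same-numbered libraries correlated from 0.0883 to 0.490 for D4H8 with D4H8+GSKJ4 and from 0.0681 to 0.267 for D5 with D5+GSKJ4. For D4 with D6 the correlations ran from 0.0101 to 0.11, and for D4 with D5 from -0.0424 to 0.216. Each range had a value below 0.1, so these groups were not taken as paired. Libraries of different number gave -0.368 to 0.154, -0.257 to 0.0388, -0.0757 to 0.0258 and -0.222 to 0.131 in these pairs of groups, in the same order. Missing the rule therefore does not show that the groups were unpaired. With the replicate block there, GSKJ4 at D4H8 called 14.0% of all genes, with *Crabp1*, *Crabp2*, *Rarg* and *Cyp26a1* at adjusted p of 0.000361, 0.0144, 0.0152 and 0.0203, and D6 against D4 called all 9 genes beside 66.6% of all genes. For GSKJ4 at D5 none was called with the block. The block changed no other call of the 9 genes than those given here and in the report.

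Reversals concerned effects that were not called. *Rarg* from D5 to D6 became 0.01 in DESeq2 and 0.01 under RLE scaling. As each library was left out, log2 values ran from 0.00 to 0.33 (*Rarb*) and -0.14 to 0.02 (*Stra6*) from D4 to D4H8, from -0.22 to 0.19 (*Rarg*) and -0.21 to 0.08 (*Dhrs3*) from D4H8 to D5, and from -0.30 to 0.04 (*Rarb*) and -0.14 to 0.10 (*Rarg*) from D5 to D6. For GSKJ4 they ran from -0.61 to 0.13 (*Rara*), -0.57 to 0.02 (*Cyp26b1*) and -0.09 to 0.44 (*Stra6*) at D4H8, from -0.02 to 0.28 (*Rarg*) at D5, and from -0.26 to 0.00 (*Rarg*), -1.26 to 0.02 (*Cyp26a1*), -0.29 to 0.02 (*Crabp1*) and -0.14 to 0.13 (*Crabp2*) at D6. For differences of effects they ran from -0.62 to 0.01 (*Cyp26a1*), -0.77 to 0.01 (*Cyp26b1*) and -0.22 to 0.32 (*Stra6*) for D5 with D4H8, from -0.05 to 0.70 (*Rara*) and -0.09 to 0.45 (*Stra6*) for D6 with D4H8, and from -0.21 to 0.01 (*Rara*) and -0.03 to 0.30 (*Stra6*) for D6 with D5.

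The count of all genes called moved by more than 1.5 times from D4 to D4H8 (767, with 1319 without the filter, 422 over 21 libraries and 350 to 912 leaving libraries out). For GSKJ4 at D4H8 it moved from 644 to 1974 in DESeq2, 2287 without the filter, 2274 with the block, 2048 over 21 libraries and 43 to 1746 leaving libraries out, with the lowest values when an untreated library was left out. At D5 it went from 1 to 69, 128, 4 and 9 in these fits, and at D6 from 0 to 1 in DESeq2 and 257 with the block. For differences of effects it went from 45 to 236, 351 and 185 (DESeq2, no filter, block) for D5 with D4H8, from 133 to 580, 626, 491 and, with at least 10 counts in every library, 208 for D6 with D4H8, and from 0 to 1 and 13 (DESeq2, no filter) for D6 with D5.

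The lowest counts among the 9 genes were found at D6, with 19 to 117 for *Cyp26a1* and 59 to 169 for *Dhrs3* over both groups. The 3 libraries per group limit the precision of every value.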
